A study of Mus musculus with 10 samples.

Results

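The genes described here are 37 interferon-stimulated and antigen presentation genes, chosen by name as a listed interferon-response program that the Zbtb16 protein is known to act on in immune cells. All 37 had a row among the 22000 genes of the count table, and 37 of 37 were among the 14344 genes that passed the filter on low counts. They were sorted by role into 7 transcription factors, 4 sensing and signalling genes, 16 effectors, 4 GTPases and 6 antigen presentation genes. RNA-seq was performed on the prefrontal cortex (PFC) of 7-week-old mice labelled male, 5 of them wild-type (WT) and 5 Zbtb16 KO. The Zbtb16 KO mice were homozygous for luxoid (lu), a spontaneous nonsense allele kept in the B6.C3-Zbtb16lu/J strain, which carries the mutation in every cell from conception and whose homozygotes also have skeletal dysplasia and a smaller body. The study asked which genes depend on Zbtb16 in the adult PFC, and none of the mice was infected or given interferon.

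Interferons are signalling proteins that cells release when they sense viral nucleic acid. Type I interferons act through JAK kinases on a complex that holds STAT2 and IRF9 and binds the interferon-stimulated response element (ISRE), and the response to interferon gamma runs through the gamma-activated site (GAS). In the healthy brain the response is held low, and microglia and vascular cells are the cells best known for raising it. Zbtb16, also called PLZF, is a zinc finger transcription factor that works with histone deacetylases and is best known in immunity for directing innate-like lymphocytes.

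Total counts lay between 30220122 and 51231439 per mouse, and the limit that a count of 0 allows, 3 counts, was 0.0586 to 0.0993 CPM, reads per 1e+06 counted reads. Zbtb16 itself, without overlap, was at 79.0 ± 7.23 CPM in the WT group and 47.4 ± 4.96 CPM in the KO group (SD over 5 mice). In that gene the log2 fold change was -0.67 ± 0.06 (SE, adjusted p = 2.8e-05, edgeR quasi-likelihood test). The library labelled KO3 held 1 count on Y-linked genes against 4376 to 8182 in the others, which goes against its label of male. The KO5 library stood farthest from the rest, with a mean distance to the other libraries of 32.4 against 25.3 to 28.8. It also had the most counts, 51231439, and the lowest RNA integrity number, 8.1 against 8.2 to 9.8 in the others. Without KO3 or without KO5, 0 of the 37 genes were called, as with all mice, and 23 of 37 log2 fold changes were below 0 in both cases, against 24 with all mice. Defining markers of cortical and other neurons, astrocytes, oligodendrocytes, microglia and endothelium were present. Those of T and NK cells were near 0, apart from Cd4 with 484 counts, with 3 counts of Cd3e, 3 of Cd8a and 1 of Ncr1 over the 10 libraries. In such bulk tissue, fewer cells of a type and less RNA per cell cannot be told apart.

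Some of the genes have a promoter feature in common, though they were chosen by name and not by sequence. Since they were listed as interferon-response genes, an excess of the ISRE or the GAS is not independent of that choice. RefSeq promoters of GRCm38.p6 (250 bases before to 50 after each start) were held for 34 of the 37 genes, Usp18, Parp9 and Parp14 having none here. The core of the ISRE, searched for on both strands, occurred in the promoters of 15 of the 34 genes (44.1%), against 3.99% of all 27025 genes with a promoter. The core of the GAS, which reads the same on both strands, occurred in 11 of the 34 (32.4%) against 9.55% of all genes. Such a match is a description of the letters and not a measured binding site. One match upstream of the RefSeq start, the nearest to it, is shown for 8 genes whose values are described below, to let the element be read in genes of different roles. Each sequence is read 5′ to 3′ on the strand of its gene, and the capitals mark the match, which appears as its reverse complement where it lay on the other strand.
Ifit1: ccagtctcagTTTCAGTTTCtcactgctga
Ifit3: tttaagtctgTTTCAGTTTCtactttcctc
Isg15: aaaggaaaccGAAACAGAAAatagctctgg
Bst2: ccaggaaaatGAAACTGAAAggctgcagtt
Gbp2: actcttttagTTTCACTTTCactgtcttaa
Gbp3: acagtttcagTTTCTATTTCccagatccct
Igtp: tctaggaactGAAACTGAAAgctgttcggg
B2m: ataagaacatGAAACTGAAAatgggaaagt
These windows lie at chr19:34640794-34640823 (Ifit1, plus strand), chr19:34583397-34583426 (Ifit3, plus), chr4:156200865-156200894 (Isg15, minus) and chr8:71537577-71537606 (Bst2, minus). Those of Gbp2 and Gbp3 lie at chr3:142620594-142620623 and chr3:142559995-142560024, that of Igtp at chr11:58199512-58199541 and that of B2m at chr2:122147538-122147567, all on the plus strand. The Gbp2 window extends past the gene start of Gencode M21, at 142620602, and the whole match in it lies inside the annotated gene. The same core GAAACTGAAA stood in Bst2, Igtp and B2m and, reversed, in Ifit1 and Ifit3. In Bst2 another ISRE match overlapped the one shown, and a GAS match lay just before them and overlapped that second match.

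Many of the genes also lie side by side. Ifit1, Ifit2 and Ifit3 are neighbours on chromosome 19 between 34550694 and 34650009, and Parp9, Parp14 and Dtx3l lie together on chromosome 16 between 35832874 and 35972605. Psmb8, Psmb9, Tap1, H2-K1 and H2-D1 all belong to the major histocompatibility complex on chromosome 17. None of the 37 genes lies on chromosome 9, which carries Zbtb16 and, in a strain bred from another background, the flanking DNA of that background.

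In both genotypes these genes were expressed at a low level. Divided by exon length, so that genes can be compared, the median level of the 37 genes was 1.18 CPM per kb, against 5.55 CPM per kb over the 13602 tested genes with a length. Of the 37 genes, 33 lay below that median, 23 among the lowest 25% of tested genes and 1 among the highest 25%. The exception was B2m, the invariant light chain of class I antigen presenting molecules, at 82.0 CPM per kb, above 97.0% of tested genes. The class I heavy chain H2-D1 followed at 14.3 CPM per kb, then Ifitm3 at 7.89, H2-K1 at 6.12 and Irf3 at 4.88. B2m and H2-D1 did not overlap the gene next below them over the 10 mice, whereas every other neighbour in the order did. At the other end stood 3 genes that are strongly inducible by interferon, with Psmb9 at 0.176, Rsad2 at 0.200 and Usp18 at 0.275 CPM per kb. Levels this low rest on few reads, since Psmb9 had 239 counts over the 10 libraries and 4 in KO3. By role, the highest levels per length were those of Irf3 among transcription factors, Eif2ak2 (1.17 CPM per kb) among sensing and signalling genes, Ifitm3 among effectors, Igtp (2.31) among GTPases and B2m among antigen presentation genes.

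**Figure D1:**
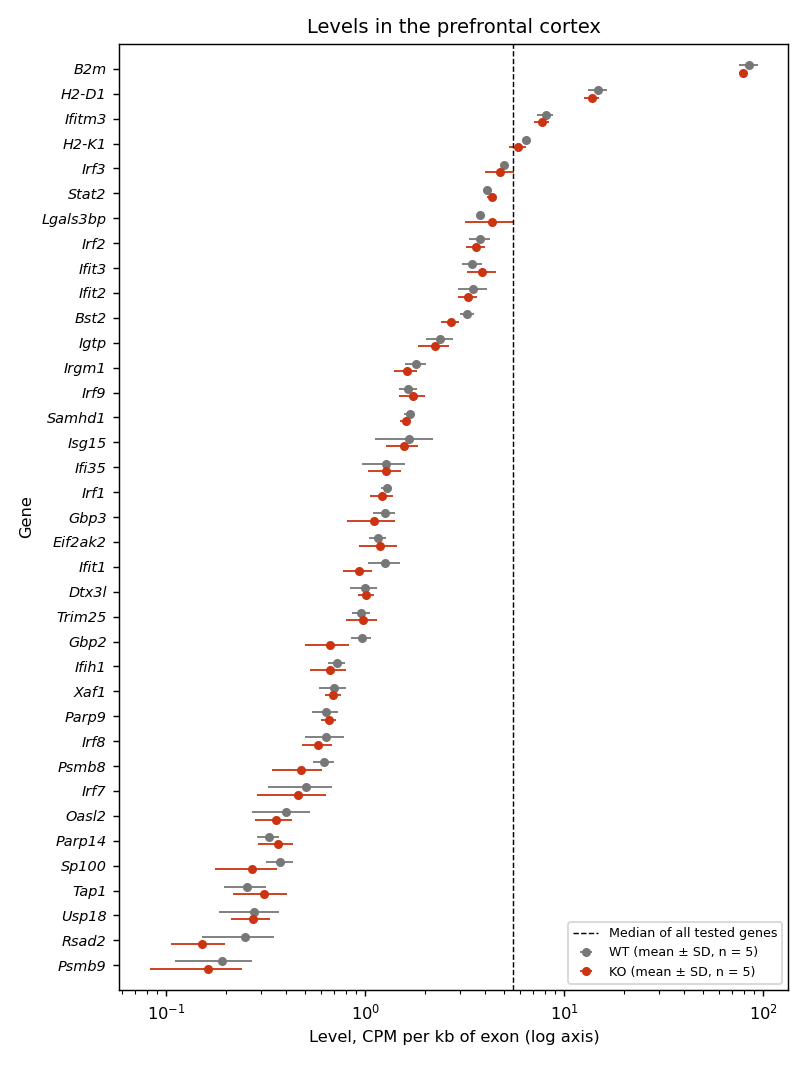
Level of each gene in CPM per kb of exon (log axis), as mean ± SD of 5 mice per genotype, with WT in grey and KO in red. B2m at 82.0 CPM per kb lies far to the right, and 33 of the 37 genes lie left of the dashed line, the median of all tested genes at 5.55 CPM per kb.

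No gene of the program was called different between the genotypes. Of the 37 genes, 0 passed an adjusted p of 0.05 in the edgeR quasi-likelihood test, against 0.844% of all tested genes (121 of 14344). The smallest adjusted p was 0.320, for Gbp2. Log2 fold changes, KO against WT, ran from -0.59 to 0.23, with 24 below 0 and 13 above, and their median was -0.05 beside -0.004 over all tested genes, of which 51.9% were below 0. This lean depended on the fit. Without KO4, and with the surrogate variables estimated again, 17 of 37 lay below 0 and the median was 0.041. With all mice and no surrogate variables, 26 of 37 lay below 0 and the median was -0.08. By the unadjusted p, 3 of the 37 genes were under 0.05, all lower in KO mice, against 5.10% of tested genes in that direction. The 95% interval of the difference lay within a 2-fold change for 34 of the 37 genes, the exceptions being Gbp2, Rsad2 and Psmb9, and within a 1.5-fold change for 26. Over all tested genes these shares were 92.9% and 83.5%. The summed CPM of the 37 genes ran from 318.0 to 344.4 in KO mice (median 329.6) and from 323.2 to 376.7 in WT mice (median 349.6), so the genotypes overlapped.

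**Figure D2:**
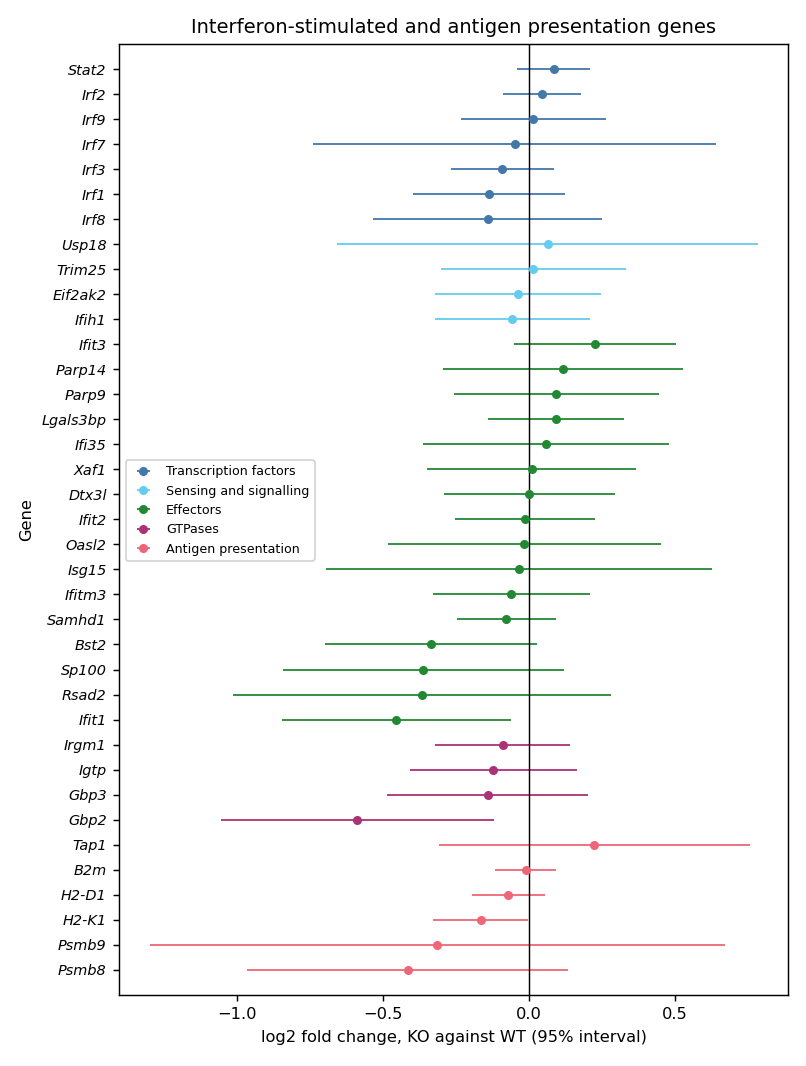
Log2 fold change of each gene (KO against WT, n = 5 mice each) from edgeR, with its 95% interval, grouped and coloured by role. Estimates run from -0.59 for Gbp2 to 0.23 for Ifit3, and only the intervals of Gbp2, Ifit1 and H2-K1 do not cross 0, none of the 3 being called after adjustment.

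Among the transcription factors, 3 of 7 log2 fold changes were above 0 and 4 below, and the median was -0.05. Irf3, the factor that turns on interferon genes when nucleic acid is sensed, was at 13.98, 19.4, 18.8, 16.5 and 13.4 CPM in KO1 to KO5 and at 16.7, 16.7, 16.5, 17.6 and 18.5 CPM in WT1 to WT5. KO mice thus lay on both sides of the WT mice, and the log2 fold change was -0.09 ± 0.08 (SE, edgeR adjusted p = 0.77). Stat2, the partner that brings the type I complex its activation domain, was at 25.8, 23.95, 24.7, 26.1 and 27.3 CPM in KO mice and at 23.8, 25.3, 22.8, 24.99 and 24.3 CPM in WT mice. The KO4, KO1 and KO5 mice were above every WT mouse while the other two lay inside the WT range, and the log2 fold change was 0.09 ± 0.06 (edgeR adjusted p = 0.67). The remaining factors were Irf1 and Irf8, which serve interferon gamma and myeloid cells, Irf2, a mostly opposing factor, Irf7, the amplifier of type I interferon, and Irf9, the DNA-binding part of the complex. Their log2 fold changes lay between -0.14 and 0.05. Irf2 had a lower mean in KO mice (26.6 ± 2.86 CPM) than in WT mice (28.0 ± 3.41 CPM) with a fitted log2 fold change of 0.05 ± 0.06, since the fit also holds 3 surrogate variables.

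The 4 sensing and signalling genes lay closest to 0, with log2 fold changes between -0.06 and 0.07. Eif2ak2 encodes PKR, a kinase that stops translation when it meets viral RNA. It was at 6.07, 6.11, 4.59, 5.40 and 8.14 CPM in KO mice and at 5.78, 6.56, 5.67, 5.17 and 6.48 CPM in WT mice, so that KO3 was the lowest and KO5 the highest of all 10. Its log2 fold change was -0.04 ± 0.13 (SE, edgeR adjusted p = 0.96). The others were Ifih1, the RNA sensor MDA5, Trim25, a ubiquitin ligase of the RIG-I route, and Usp18, which removes ISG15 from proteins and damps the receptor.

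Among the 16 effectors, 9 log2 fold changes were below 0 and 7 above, with a median of -0.01. Ifit1, which binds viral RNA that lacks host cap methylation, was at 2.68, 1.91, 2.62, 2.18 and 2.94 CPM in KO mice and at 3.62, 3.18, 4.09, 2.42 and 3.41 CPM in WT mice. All KO mice were below the WT mean and the genotypes overlapped only through WT4. The log2 fold change was -0.45 ± 0.18 (SE, edgeR adjusted p = 0.371). Its neighbour and binding partner Ifit3 was at 8.47, 5.92, 5.80, 6.41 and 7.27 CPM in KO mice and 5.58, 7.06, 6.40, 5.28 and 5.83 CPM in WT mice. Only KO1 and KO5 were above the WT range, and the log2 fold change was 0.23 ± 0.13 (edgeR adjusted p = 0.584). Without KO1 it was 0.061. The Ifit3 value is uncertain in another way, because 31.3% of its 101-base words, the length of a read, also occur in Ifit3b. The third neighbour, Ifit2, differed by -0.01 ± 0.11.

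Bst2, or tetherin, which holds budding virus on the cell surface, was the only one of the 37 genes with CPM values fully separated between KO and WT mice, as were 1.58% of tested genes. It was at 2.23, 2.44, 2.71, 2.10 and 2.63 CPM in KO mice and at 3.12, 2.77, 3.24, 2.75 and 2.76 CPM in WT mice, so that the highest KO mouse fell just short of the lowest WT mouse. In the edgeR fit its log2 fold change was -0.33 ± 0.17 (SE, edgeR adjusted p = 0.517).

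Rsad2, or viperin, a radical SAM enzyme that makes an antiviral nucleotide, was at 0.791, 0.407, 0.617, 0.915 and 0.560 CPM in KO mice and at 1.46, 1.34, 0.592, 0.639 and 1.37 CPM in WT mice. The WT mice split into WT1, WT2 and WT5, above every KO mouse, and WT3 and WT4, inside the KO range. The log2 fold change of Rsad2 was -0.37 ± 0.31 (edgeR adjusted p = 0.742). Its size depended on the fit, at -0.10 without WT5, -0.16 without KO2 and -0.23 without KO4. Without surrogate variables it was -0.71 in all mice. It was -0.97 in the mice with an RNA integrity number of 9.5 or above, a fit that also held no surrogate variables. Sp100, a scaffold of the nuclear bodies that PML forms, was at 2.99, 1.38, 2.44, 1.39 and 1.95 CPM in KO mice and at 3.32, 2.89, 2.31, 2.47 and 3.16 CPM in WT mice. Here KO2 and KO4 were the lowest while KO1 and KO3 lay inside the WT range, and the log2 fold change was -0.36 ± 0.23 (edgeR adjusted p = 0.631). It was -0.11 without KO4, -0.24 without KO2 and -0.63 without KO1. Without surrogate variables it was -0.48 in all mice and -0.69 at the same RNA integrity limit. Ifitm3, a membrane protein that blocks viral fusion, was at 5.76, 5.39, 5.24, 4.52 and 5.28 CPM in KO mice and at 6.31, 5.17, 5.55, 4.98 and 5.32 CPM in WT mice, and the genotypes overlapped (log2 fold change -0.06 ± 0.13). The other 9 effectors, among them Isg15, a ubiquitin-like modifier, Oasl2, of the oligoadenylate synthetase family, and Samhd1, which breaks down deoxynucleotides, lay between -0.08 and 0.12. Oasl2 ran from 1.63 CPM in KO2 to 3.77 CPM in WT2, and Lgals3bp from 8.51 CPM in KO3 to 17.7 CPM in KO5.

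**Figure D3:**
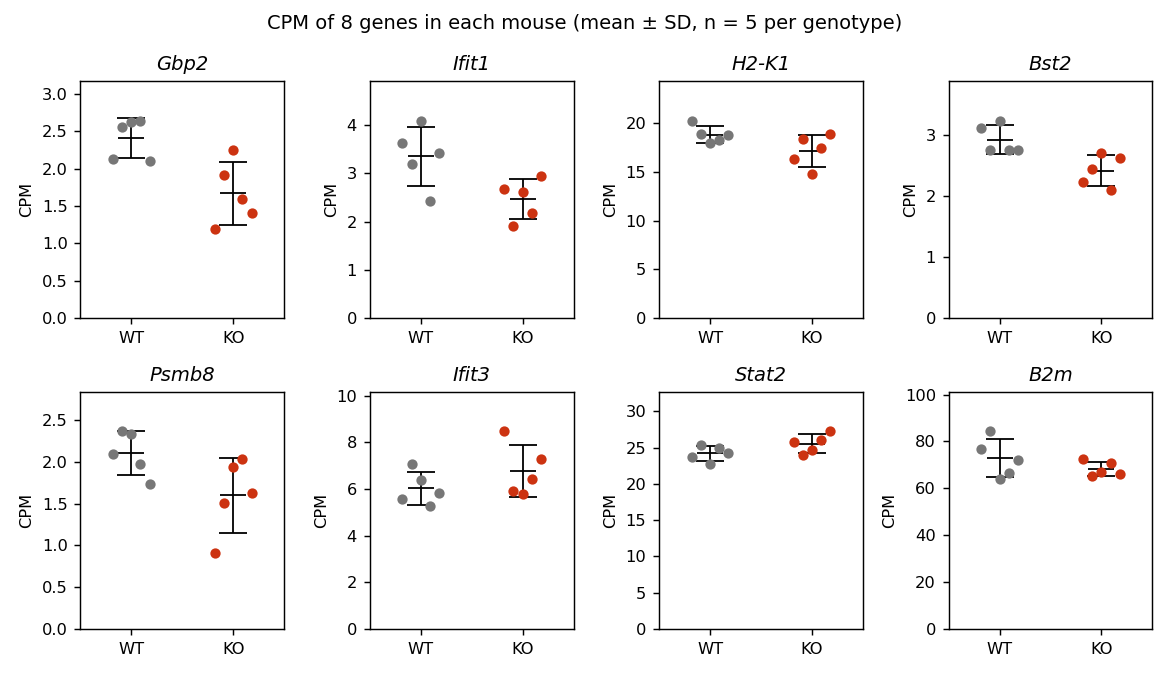
CPM of 8 genes in each WT (grey) and KO (red) mouse, with mean ± SD of 5 mice per genotype on axes that start at 0. The genotypes overlap in every panel except that of Bst2, where KO mice end at 2.71 and WT mice begin at 2.75 CPM.

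The 4 GTPases, of families known for defence against intracellular microbes, all had log2 fold changes below 0, with a median of -0.13. Gbp2, a guanylate-binding protein, was at 1.19, 1.91, 2.25, 1.59 and 1.41 CPM in KO mice and at 2.13, 2.56, 2.62, 2.64 and 2.10 CPM in WT mice. All KO mice but KO3 were below every WT mouse, and KO3 lay inside the WT range. Its log2 fold change was -0.59 ± 0.22, the lowest of the 37 genes (SE, 95% interval -1.06 to -0.12, edgeR adjusted p = 0.32). Without KO1 it was -0.37. It was under an unadjusted p of 0.05 in 20 of the 22 alternative fits and called in none of them. Igtp, the most abundant GTPase per length, was at 4.29, 3.41, 4.56, 4.72 and 5.68 CPM in KO mice and at 4.88, 4.29, 4.23, 4.64 and 6.09 CPM in WT mice. KO2 alone fell below the WT range, and the log2 fold change was -0.12 ± 0.14 (edgeR adjusted p = 0.826). Gbp3 and Irgm1 differed by -0.14 ± 0.16 and -0.09 ± 0.11. Igtp shares 5.06% of its words with Irgm2 and 162 bases of exon with it.

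The rest of the family was read from a list of 18 further interferon-inducible GTPases, of which 15 were in the table under these names and 9 passed the filter. All 9 log2 fold changes were below 0, with a median of -0.33, and 0 of the 9 were called. With the 4 above, 13 of 13 tested GTPase genes were below 0, against 51.9% of all tested genes, with a median of -0.15. The shared direction depended on the fit. Without KO4, with another tested set and the surrogate variables estimated again, it was 8 of 14, with a median of -0.06. With all mice and no surrogate variables it was 12 of 13, with a median of -0.18. Gbp4 had the largest difference, at 1.16, 1.06, 0.617, 0.590 and 1.06 CPM in KO mice and at 0.831, 1.80, 1.72, 2.42 and 1.79 CPM in WT mice. Apart from WT1, every WT mouse was above every KO mouse, and the log2 fold change of Gbp4 was -1.05 ± 0.33 (SE, edgeR adjusted p = 0.204). Gvin1 followed at -0.98 ± 0.63 (edgeR adjusted p = 0.64), with means of 0.245 CPM in KO and 0.373 CPM in WT mice. These genes lie in clusters of close relatives and are not independent replicates of one another.

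**Figure D4:**
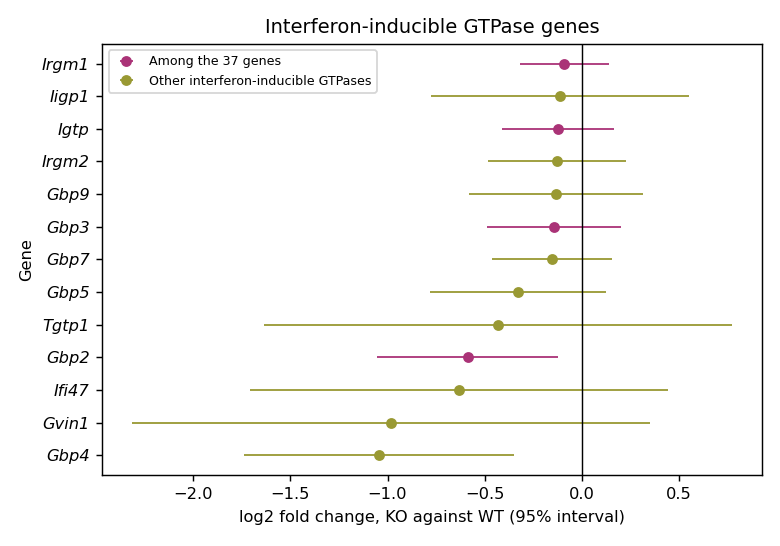
Log2 fold change (KO against WT, n = 5 mice each) of the 13 tested interferon-inducible GTPase genes, with 95% intervals from edgeR. All 13 estimates lie left of 0, 11 of the 13 intervals cross 0, and without KO4 only 8 of 14 tested estimates were below 0.

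Of the 6 antigen presentation genes, 5 had log2 fold changes below 0, with a median of -0.12. B2m was at 72.4, 65.3, 67.1, 70.8 and 66.1 CPM in KO mice and at 76.8, 84.3, 64.0, 66.7 and 72.1 CPM in WT mice. KO mice lay inside the WT range, and with a log2 fold change of -0.01 ± 0.05 (SE, 95% interval -0.11 to 0.09, edgeR adjusted p = 0.972) B2m was the best bounded of the 37 genes. H2-K1, a class I heavy chain, was at 16.3, 18.3, 14.8, 17.4 and 18.9 CPM in KO mice and at 20.3, 18.9, 17.96, 18.3 and 18.8 CPM in WT mice. KO1, KO3 and KO4 lay below the WT range and KO2 and KO5 within it, and the log2 fold change was -0.16 ± 0.08 (edgeR adjusted p = 0.464). H2-K1 was under an unadjusted p of 0.05 in 4 of the 22 alternative fits, and in 0 of the 10 that left out 1 mouse. H2-D1, the other heavy chain, was at 35.5, 32.6, 33.0, 36.4 and 40.5 CPM in KO mice and at 39.3, 42.7, 32.1, 36.4 and 40.0 CPM in WT mice, with full overlap and a log2 fold change of -0.07 ± 0.06 (edgeR adjusted p = 0.741). It was -0.0060 without KO4, -0.0081 without WT5 and -0.022 without KO2. Without surrogate variables it was -0.097 in all mice and -0.22 in the mice with an RNA integrity number of 9.5 or above. In the latter fit it had the smallest edgeR adjusted p of the 37 genes, 0.551. H2-D1 shares 3.55% and H2-K1 0.905% of their words with other class I genes.

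Psmb8 and Psmb9 encode subunits of the immunoproteasome, the form of the proteasome that cuts peptides for class I molecules. Psmb8 was at 0.904, 1.503, 1.94, 2.04 and 1.62 CPM in KO mice and at 2.09, 2.37, 2.34, 1.97 and 1.73 CPM in WT mice. KO1, KO2 and KO5 lay below the WT range and the other two within it, with a log2 fold change of -0.41 ± 0.26 (SE, edgeR adjusted p = 0.631). It was -0.11 without KO1 and -0.66 without KO4. Psmb9 had too few reads to bound its difference, with a log2 fold change of -0.31 ± 0.47, and Tap1, which carries peptides into the endoplasmic reticulum, was at 0.22 ± 0.25. Psmb9 and Tap1 overlap on opposite strands by 212 exon bases, Psmb8 overlaps an antisense gene by 498, and Parp9 and Dtx3l overlap by 458. Whether counting used strand is not given in the sources used here, so reads in those bases cannot be told apart. The constitutive proteasome subunits that Psmb8, Psmb9 and Psmb10 replace, Psmb5, Psmb6 and Psmb7, had log2 fold changes between -0.03 and 0.01.

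The wider pathway was read from lists that hold none of the 37 genes. Interferons themselves were at the limit of detection, with 1 count each of Ifnb1, Ifng and Ifnk over the 10 libraries and 0 of Ifna1, Ifna2, Ifna4, Ifna5, Ifna9, Ifne, Ifnl2 and Ifnl3, which allows up to 0.0993 CPM in the shallowest library. Of the 14 receptor, JAK and STAT genes and their inhibitors, 13 were tested and 0 called, with 8 log2 fold changes above 0 and 5 below. Stat3, a cytokine signal transducer, was at 0.12 ± 0.06 (edgeR adjusted p = 0.473) and Il10rb, a subunit of the interferon lambda receptor, at -0.21 ± 0.12 (0.582). Of 14 tested nucleic acid sensors and adaptors, 0 were called. Tlr3, the endosomal RNA receptor, was at -0.19 ± 0.10 (edgeR adjusted p = 0.495). Ikbke, a kinase that activates IRF3, was named after its values were seen, at 0.867 ± 0.0452 CPM in KO against 0.682 ± 0.0696 CPM in WT (SD over 5 mice). Its CPM did not overlap between the genotypes, as in 1 of the 98 tested genes of these wider lists and 1.58% of all tested genes. Its log2 fold change was 0.34 ± 0.30 (edgeR adjusted p = 0.759).

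Of 58 other interferon-stimulated genes in the table, 40 were tested and 0 called, with 23 log2 fold changes below 0, 17 above and a median of -0.03. Slfn5, a schlafen protein, was at -0.36 ± 0.13 (edgeR adjusted p = 0.316), with 8.60 ± 1.37 CPM in KO and 11.7 ± 2.26 CPM in WT mice. Herc6, the ligase that attaches ISG15 in mice, was at -0.14 ± 0.06 (0.419). Of 27 further antigen presentation genes, 22 were tested and 0 called, 11 above 0 and 11 below. Calr, a chaperone of class I folding, was at 0.10 ± 0.04 (edgeR adjusted p = 0.464) and Psme2, a proteasome activator subunit, at -0.19 ± 0.09 (0.489). The 7 genes encoding known partners of the Zbtb16 protein, PML and the histone deacetylase and corepressor proteins, lay between -0.05 and 0.05, with 0 called, the smallest p being those of Hdac4 and Hdac3. Over the 98 tested genes of the ligand, receptor, sensor, effector, GTPase and antigen presentation lists, 56 were below 0, with a median of -0.02.

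Mice of the same genotype also varied. With every gene set against its 10-mouse mean, the median of the 37 genes was highest in WT2 (0.12 on the log2 scale) and lowest in KO2 (-0.09) and WT4 (-0.08), so mice of both genotypes stood at the low end. WT2 had the highest CPM of the 10 mice for 8 of the 37 genes, WT1 for 7 and KO5 for 6, where these mice had the highest CPM for 13.7%, 9.68% and 18.9% of all tested genes. KO2 had the lowest for 10 of the 37 genes and KO4 and WT4 for 6 each, against 12.3%, 7.72% and 6.21% of all tested genes. The coefficient of variation was higher in KO than in WT mice for 22 of the 37 genes and for 59.0% of all tested genes. After the genotype means were removed, Pearson's r between pairs of the 37 genes over the 10 mice had a median of 0.12 over 666 pairs, against -0.0006 over all tested genes, and 62.2% of the pairs were above 0. By role the medians were 0.26 for antigen presentation genes, 0.20 for effectors, 0.12 for sensing and signalling genes, -0.02 for transcription factors and -0.17 for the 4 GTPases (6 pairs). Over all 13 tested GTPase genes the median was 0.13 (78 pairs). For the 9 genes above 10 CPM the median was -0.01. These pairs share the same 10 libraries and their depth, and the values are given as a description.

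**Figure D5:**
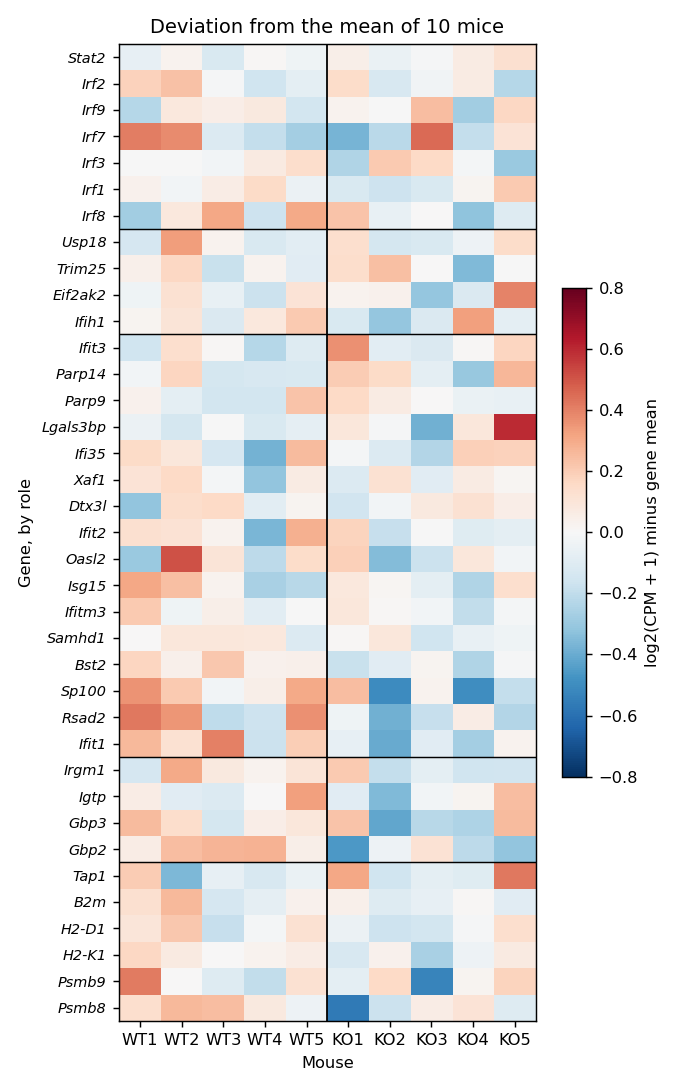
Deviation of log2(CPM + 1) from the 10-mouse mean of each gene, for 37 genes (rows, by role) and 5 WT and 5 KO mice (columns), red above and blue below. WT2, with a median of 0.12, is mostly red, and KO2 (-0.09) and WT4 (-0.08) are mostly blue.

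Microglial and endothelial marker levels overlapped between the genotypes. Summed CPM of the 14 tested microglial markers was 400.9 to 439.8 in KO mice and 382.4 to 422.2 in WT mice, and that of 11 endothelial markers was 292.5 to 329.3 and 296.7 to 329.4. Of the microglial markers 8 of 14 had log2 fold changes below 0, and of the endothelial markers 8 of 11, with 0 called in either list. By the unadjusted p, 2 of the 14 and 2 of the 11 were under 0.05, all lower in KO mice. The share of all tested genes in that direction was 5.10%. The smallest edgeR adjusted p was 0.315 among the microglial and 0.264 among the endothelial markers. The 7 perivascular macrophage markers summed to 7.56 to 13.7 CPM in KO and 9.78 to 11.9 CPM in WT mice. With a microglial marker score in place of the surrogate variables, 27 of the 37 genes were below 0 and 0 were called, and the same counts were obtained with a score of striatal markers. The summed striatal markers overlapped between the genotypes through WT5, at 590.0 CPM the highest of the 10 mice. They were at 328.2 to 489.6 CPM in KO mice and at 297.7 to 327.4 CPM in WT1 to WT4. Of the 8 tested striatal markers 0 were called, 6 had log2 fold changes above 0, and the median was 0.19. The smallest edgeR adjusted p among them was 0.084. By the unadjusted p, 4 of the 8 were under 0.05, all higher in KO mice, against 10.6% of all tested genes in either direction. Blood markers reached 143.1 CPM in KO5, the mouse with the highest Eif2ak2 and Lgals3bp, against 27.7 to 59.3 CPM in WT mice. The part of blood, endothelium and perivascular macrophages in these values was not tested.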

How the data were processed

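The authors aligned paired reads of a stranded mRNA library to mm10 with STAR (2.7.1a) and counted uniquely mapped reads on exons of Gencode M21 protein-coding genes with HTSeq (0.9.1). The deposited values are raw counts per gene, without normalization. From these, CPM was computed with TMM-scaled library sizes and genes were tested with edgeR (4.0.16, R 4.3.3) by its quasi-likelihood test after its filter on low counts. Genotype was fitted beside 3 surrogate variables, which sva (3.50.0) estimated on log2(CPM + 1), with Benjamini-Hochberg adjustment over 14344 genes and a threshold of 0.05. The SE is the log2 fold change over the root of the F statistic. Scripts were tested on simulated data. The 37 genes and all lists were chosen with earlier results of these data known. Values in every mouse are given for genes that did not overlap, the 10 with the smallest p, and the most abundant per length in each role. From the other lists, up to 2 genes with the smallest p were named, 1 of which is not reported here. Exon lengths, positions and shared words are from Gencode M21, and promoters from RefSeq (GRCm38.p6). Drd1, Ifi211, Ifgga1, Ifgga2 and Ifgga3 were not analysed here. Intervals and limits cover counting error and mouse spread only, since reads carried no molecular identifiers. Each library is 1 mouse. DESeq2 (1.42.0), a linear model (limma 3.58.1), other covariates and leaving out each mouse were the alternatives. Figures used Python 3.11.15 and matplotlib 3.10.9.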

Additional observations from a re-analysis of the deposited data

Results flagged for a closer look

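Irgm1 in KO1, at 11.5 CPM, stood apart from the other KO mice, at 8.52 to 9.31 CPM, beyond Dixon's critical value of 0.71 for 5 samples. It was the only such value among 76 groups of 5 mice, where chance gives about 3.8. The WT mice ranged from 8.90 to 12.4 CPM, so that KO1 lay inside the WT range.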

How the results depend on the processing

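In all 22 alternative fits 0 of the 37 genes and 0 of the wider lists were called, while the number of genes called overall ran from 1 to 248 against 121. The 10 genes with the smallest p kept their direction in 220 of 220 single values, and none was called. They were picked by p in these same mice, so that agreement is no separate evidence. Some of the other genes changed sign when 1 mouse was left out, such as Gbp3, from -0.38 to 0.041. Counts of genes below 0 and of those under an unadjusted p of 0.05 were added after seeing the data, as were the fits with a striatal or a microglial marker score. With all mice and no surrogate variables, the median log2 fold change was -0.08. There 4 of the 37 genes were under an unadjusted p of 0.05 in edgeR, all lower in KO mice, against 8.02% of tested genes in either direction. Restricted to the 6 mice with an RNA integrity number of 9.5 or above, also without surrogate variables, the median was -0.15. In that fit 6 of the 37 genes were under an unadjusted p of 0.05 in edgeR, all lower in KO mice. Of all 14345 genes tested in that fit, 6.85% were under it in either direction, and 1 gene in all was called. In the linear model Zbtb16 stayed at -0.67 with an adjusted p of 0.236. Leaving out 1 mouse at a time moved the median from -0.10 to 0.041 (the latter without KO4), the genes below 0 from 17 to 28, the GTPases below 0 from 8 to 14, those under an unadjusted p of 0.05 from 1 (without WT3) to 3, Zbtb16 from -0.70 to -0.60 and the median level from 1.15 to 1.22 CPM per kb. The cause was not tested. The replicate numbers are not known to pair mice, and deviations of same-numbered mice correlated at -0.106 to 0.173, with 4 of 10 mice closest to their own number. With the replicate block, and without surrogate variables, 24 genes were called in all against 30 without the block, and 0 of the 37, with a median of -0.08 and 25 below 0. Depth limits the genes under 1 CPM, such as Psmb9, Rsad2 and Usp18, whose intervals are wide.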
